A study of Mus musculus with 44 samples.

Results

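The 10 genes described here are members of the Fbxw cluster of mouse chromosome 9: Fbxw13, Fbxw14, Fbxw15, Fbxw16, Fbxw18, Fbxw19, Fbxw20, Fbxw21, Fbxw22 and Fbxw24. They were chosen by name, as 10 of the 35269 genes in the deposited table, and all 10 passed the filter on low values that left 16412 genes for testing. Each encodes an F-box protein with WD repeats. F-box proteins are the subunits of SCF ubiquitin ligases that select the substrate, and they are joined through the adaptor SKP1 to the cullin CUL1 and the RING protein RBX1. The chromosome 9 genes form a tandem array that has expanded in rodents and whose transcripts are known mainly from oocytes.

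Single 2-cell embryos from natural matings on a C57Bl/6 background were sequenced, each as its own library. WT embryos (n = 14, Dppa2/4+/+) came from control females and WT males, in litters of 10 and 4 embryos. HET1 embryos (n = 15, Dppa2/4+/-, litters of 7 and 8) came from cKO females, in which a Zp3-Cre transgene deletes Dppa2 and Dppa4 in growing oocytes, mated with WT males, and so lack the maternal store but carry a paternal WT allele. HET2 embryos (n = 5, Dppa2/4+/-, 4 and 1 from each litter) and HOM embryos (n = 10, Dppa2/4-/-, 3 and 7) came from the same litters of cKO females and Dppa2/4+/- males, and the authors told them apart by their own Dppa2 and Dppa4 reads. In comparisons with WT embryos each litter lies on a single side. Differences between litters thus enter the genotype difference, and only 2 litters per group measure them. Embryos of a litter share a mother, so p-values over embryos measure the spread between embryos and not between litters. Dppa2 had a mean of 1.89 log2 RPM (reads of a gene relative to all reads of the library, scaled to a common total) in HOM and 8.46 in WT embryos, which checks the labels only in part, as the transcript was used to assign them.

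Depth ranged from 247667 to 3163026 reads per embryo, with a median of 1770010 in WT, 528166 in HET1, 1108889 in HET2 and 803369 in HOM embryos. Reads of oocyte markers were found for 12 of 12 listed genes and of 2-cell markers for 10 of 10. Markers of the cumulus and granulosa cells that surround an oocyte summed to between 0 and 17.7 RPM per embryo (median 1.72), and Fshr, the receptor for follicle-stimulating hormone, had no read in any of the 44 embryos. Each library holds a single 2-cell embryo, and RPM is relative to the reads of its own library, so the amount of RNA per embryo was not measured.

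In the GENCODE annotation of GRCm38 the members lie on the reverse strand of chromosome 9, from 109139447 (the end of Fbxw21) to 109702700 (the start of Fbxw18), a span of 563.3 kb. The interval holds 21 annotated genes, of which 10 are members and 3 are other Fbxw loci (Fbxw28, Fbxw25 and the pseudogene Fbxw23). The order along the chromosome is Fbxw21, Fbxw13, Fbxw20, Fbxw14, Fbxw22, Fbxw16, Fbxw19, Fbxw15, Fbxw24 and Fbxw18. All members are annotated as protein-coding, and the longest coding transcript has 10 exons in every member except Fbxw21, where it has 9.

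Promoter sequences were looked up in the RefSeq table (build GRCm38.p6), which held entries for 8 of the 10 members. Fbxw13 and Fbxw22 had no entry. The 250 bases upstream of the start site were between 84.7% and 96.4% identical over the 28 pairs of members, with a median of 90.3%. A 12-base word, aaatctttggcc, was the longest shared by all 8. Over the 27025 windows searched, with 1 chromosome that holds no member left out, it occurred upstream of 10 genes, and these were the 8 members, Fbxw28 and Fbxw26. The stretch around it is shown for 5 members because it holds the letters that recur at fixed spacing, with CAGCTG (an E-box, the letters recognised by basic helix-loop-helix factors) and TTTAAA in capitals, 5′ to 3′ on the reverse strand:
Fbxw24: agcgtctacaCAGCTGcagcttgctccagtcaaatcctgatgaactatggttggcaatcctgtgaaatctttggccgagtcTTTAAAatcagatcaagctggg
Fbxw16: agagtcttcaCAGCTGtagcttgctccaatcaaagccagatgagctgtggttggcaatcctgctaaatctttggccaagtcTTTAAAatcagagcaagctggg
Fbxw15: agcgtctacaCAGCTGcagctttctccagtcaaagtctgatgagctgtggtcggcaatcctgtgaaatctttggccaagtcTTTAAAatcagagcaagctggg
Fbxw14: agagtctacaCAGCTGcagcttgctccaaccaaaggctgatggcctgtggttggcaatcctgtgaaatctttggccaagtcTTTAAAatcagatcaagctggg
Fbxw20: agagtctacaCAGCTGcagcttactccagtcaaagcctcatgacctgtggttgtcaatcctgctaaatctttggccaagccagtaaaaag

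These stretches lie at chr9:109626068-109626170, chr9:109449148-109449250, chr9:109568271-109568373, chr9:109287680-109287782 and chr9:109234755-109234844, in the order shown. CAGCTG was found in all 8 members with an entry and in 12.8% of the 27025 windows searched. Of the copies in a window, the last before the start site had its first base 54 bases before the shared word in each of the 8, and between 80 and 125 bases before the start site. TTTAAA was found in 7 of 8 members and in 12.1% of all windows. In those 7 its first base lay 71 bases after that of this CAGCTG. Fbxw20 is the exception and is shown for this reason: its stretch runs through the shared word and then differs where the other members read TTTAAA. Both letter strings together occurred in 7 of 8 members and in 1.29% of all windows. Both read the same on either strand, so a single search covers both strands, and every CAGCTG is also counted under the general E-box CANNTG, which 8 of 8 members and 66.0% of windows hold. The TATA-box letters TATAAA, searched on both strands, were in 0 of 8 member windows and in 12.97% of all windows. The homeobox letters TAATTG, also on both strands, were in 0 of 8 and in 7.34%, and the palindrome TAATTA in 0 of 8 and in 4.90%. The match of letters describes the sequence only.

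The transcripts are related but mostly distinct at the length of a read. The longest coding transcripts were between 78.7% and 93.1% identical over the 45 pairs (median 84.1%). The closest pair was Fbxw14 and Fbxw22. Windows of 75 bases were looked up in all annotated transcripts, and in 9 of the 10 members between 88.1% and 99.4% of windows were found in no other gene. In Fbxw14 the share was 46.5%, with 906 of 1712 windows also present in Fbxw28. The authors' mapping quality limit removes reads that match both genes equally well. The level of Fbxw14 is therefore uncertain and may be too low. Reads were counted without strand. Fbxw15 shares 168 of its 1495 exonic bases with the antisense gene Gm42756, and Fbxw16 shares 210 of 1801 with Gm42494, a locus of the annotation class TEC, and reads in these overlaps cannot be assigned. Gm42756 had a median of 4 reads against 38 for Fbxw15, and Gm42494 9.5 against 74 for Fbxw16. Over the 44 embryos the level of Gm42756 had r = 0.74 with Fbxw15, and that of Gm42494 r = 0.53 with Fbxw16. The part of shared reads in these values was not tested.

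Fbxw24 was the most abundant member. Its level per length was 125 ± 43.6 RPM per kb of exon (SD, n = 44 embryos), and its reads made up 40.0% ± 8.10 (SD, n = 44) of those of the 10 members, with embryos between 23.4% and 54.2%. Fbxw16 followed at 45.3 ± 20.4 RPM per kb and Fbxw15 at 32.3 ± 23.3. Next came Fbxw18 at 19.7 ± 15.0, Fbxw14 at 13.7 ± 8.72, Fbxw19 at 13.2 ± 6.996 and Fbxw22 at 11.3 ± 10.3 RPM per kb. The lowest levels per length were those of Fbxw20 (5.76 ± 5.51), Fbxw21 (5.49 ± 5.02) and Fbxw13 (2.16 ± 3.11). Fbxw24 stood above Fbxw16 in 44 of 44 embryos, by 1.59 ± 0.98 (SD) in log2 level per length. For each of the 8 other neighbouring pairs in this order the mean log2 difference was smaller than its SD over embryos, so neighbouring ranks below the first are not separated by the spread. Exonic length here is the union over annotated transcripts, which is 3487 bases for Fbxw19 against 1483 for its coding transcript. Divided by the coding transcript instead, Fbxw19 had 31.0 RPM per kb and moved from rank 6 to rank 4.

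**Figure D1:**
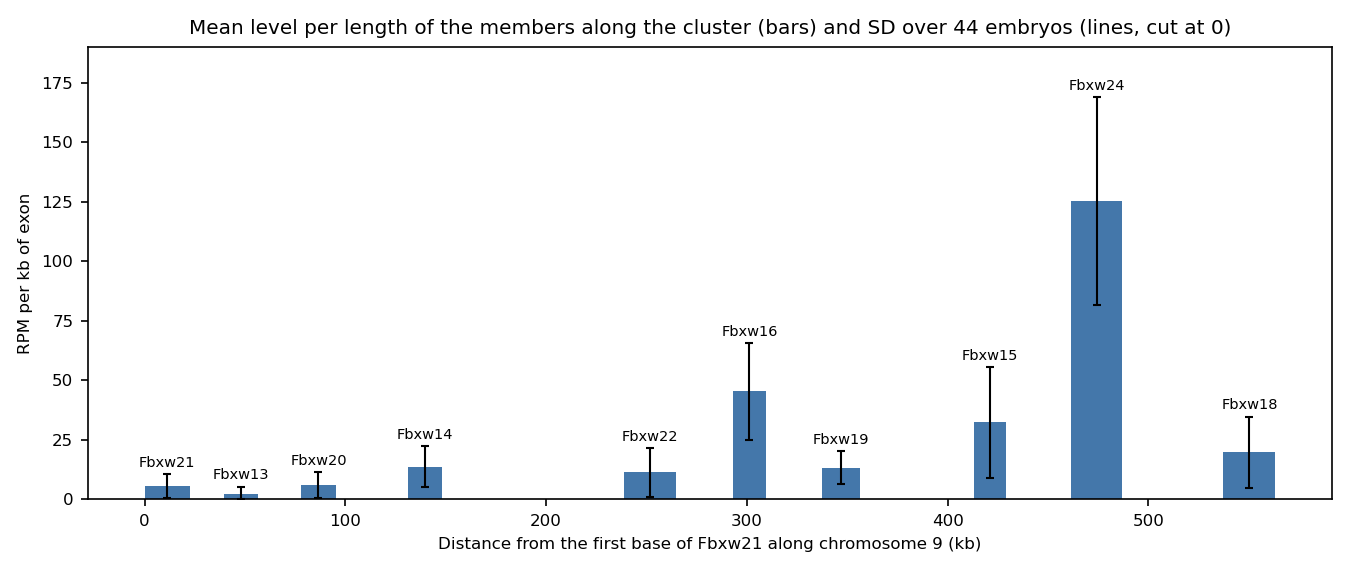
Mean level per length (RPM per kb of exon, vertical axis) of each member against its position, as distance in kb from the first base of Fbxw21 (horizontal axis). Bars are means over 44 embryos with the width of the gene, and lines are the SD, cut at 0. Fbxw24 at 125 RPM per kb stands above all other members, followed by Fbxw16 at 45.3 and Fbxw15 at 32.3.

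Reads of Fbxw14, Fbxw15, Fbxw19 and Fbxw24 were present in 44 of 44 embryos, those of Fbxw16 in 43, Fbxw18 in 42, Fbxw21 and Fbxw22 in 41, and Fbxw20 in 38. Fbxw13 had reads in 21 embryos and at least 3 reads in 15, so that its absence in the others was not distinguishable from a low level at this depth. Levels from here on are log2 RPM with low values raised to a common floor of 1.86, the highest value that an embryo without any read of a gene was given. Fbxw24 ranged from 6.15 to 8.44 over all embryos and varied least (SD 0.53). Fbxw22 varied most, from the floor to 6.32 (SD 1.34). The median SD of the members was 0.99, and that of the 6919 genes whose mean level was 3 log2 RPM or more was 1.03.

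Members did not always fall together in an embryo. WT embryo k, from the litter of 4, had no reads of Fbxw13, Fbxw16, Fbxw20 or Fbxw21 at a depth of 1065975 reads, where 3 reads correspond to 2.81 RPM. Its library had the fewest genes with reads of all 44, 9169 beside a median of 11863.5, and WT embryo j, without reads of 3 members, had 9403 at 1367153 reads. The same embryo k had 229 reads of Fbxw24, 196 of Fbxw15, 117 of Fbxw19 and 61 of Fbxw14. The other 3 embryos of its litter had 389, 298 and 93 reads of Fbxw16, and this embryo was the only one of 44 without Fbxw16 reads. HET2 embryo e, the single HET2 embryo of its litter, had no reads of Fbxw20 or Fbxw22 at 1725669 reads, with 316 reads of Fbxw24. In 19 embryos every member had at least 1 read.

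**Figure D2:**
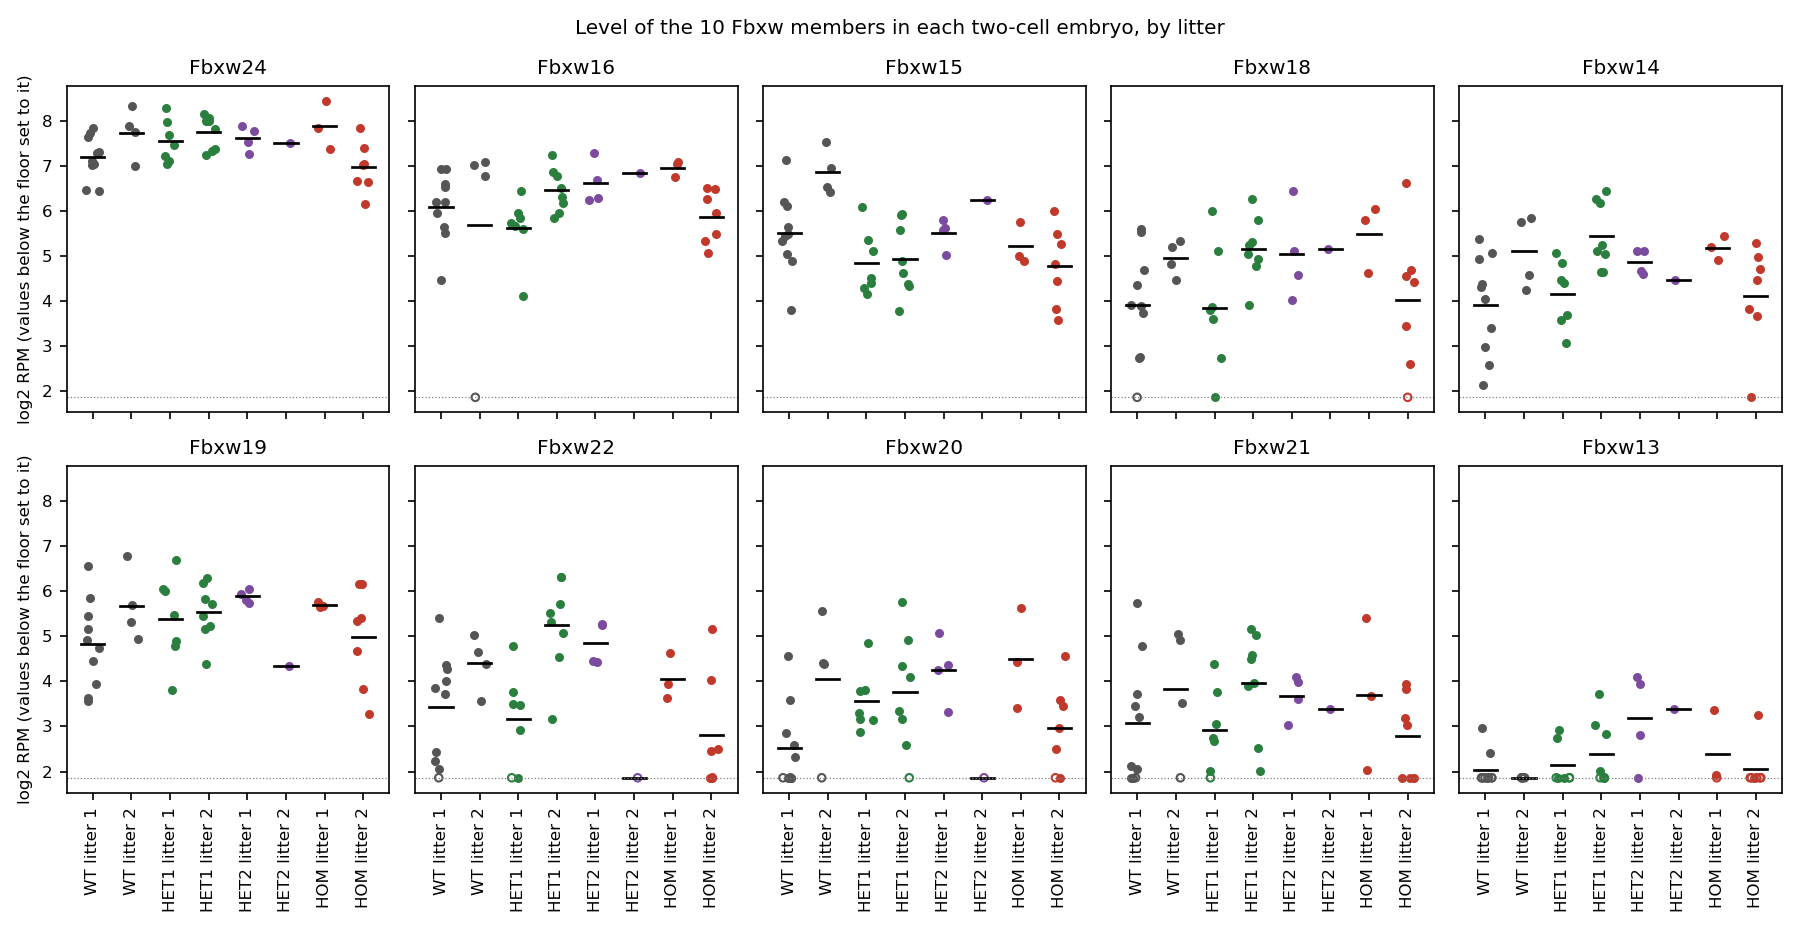
Level of each member (log2 RPM, vertical axis) in each of the 44 embryos (points), by litter (horizontal axis) and coloured by group. Open points had no read, black bars are litter means, and the dotted line is the common floor of 1.86. Fbxw24 lies between 6.15 and 8.44 in all litters, and most Fbxw13 points sit on the floor.

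The comparison of HOM with WT embryos asks whether the level of these transcripts differed in embryos that lack maternal and zygotic Dppa2/4. None of the 10 members passed the test (limma, Benjamini-Hochberg adjusted p under 0.05), against 0.0183% of all tested genes (3 of 16412). At an unadjusted p under 0.05 there was 1 member, Fbxw15, beside 2379 of all 16412 genes, and limma with voom weights on recovered reads called 0. Fbxw24 ranged from 6.15 to 8.44 in HOM (median 7.20) and from 6.44 to 8.32 in WT embryos (median 7.30), and the groups overlapped over almost their whole ranges. The differences of the other 9 members besides Fbxw15 lay between -0.51 and 0.47 on the log2 scale. The median over the 10 members was 0.15, beside 0.09 over all tested genes and 0.24 over the 6919 genes with a mean of at least 3.

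In HET1 against WT embryos 1 of the 10 members was called, where 4.54% of all tested genes were called in either direction and 2.05% lower in HET1. This was Fbxw15, with levels from 3.77 to 6.08 (median 4.62) in HET1 and from 3.797 to 7.52 (median 5.88) in WT embryos. The HET1 levels were lower on the whole, though the ranges overlapped. The log2 difference was -1.003 ± 0.302 (SE), a 2.00-fold lower mean, with an adjusted p of 0.0444 by limma. The other 9 members did not pass, with differences between 0.09 and 0.71. On the deposited values and with voom Fbxw13 was called as well (1.79 and 2.25 in place of 0.29), beside 4054 and 2520 of all genes, and without HET1 litter 1 Fbxw22 was called in place of Fbxw15. That of Fbxw16 (0.09) became -0.20 without WT embryos j and k. The median over the 10 members was 0.32, beside 0.05 over all tested genes. In the same comparison the 12 oocyte markers all had differences above 0, with a median of 0.99, and H1foo, the oocyte linker histone (2.52 ± 0.53, SE, adjusted p = 0.00468), and Ooep (1.20 ± 0.37, adjusted p = 0.0493) were called by limma. With litter as a random effect 0 of the 16412 genes were called in this comparison, with adjusted p = 0.231 for H1foo and 0.493 for Ooep. The 10 2-cell markers had 9 differences above 0, with a median of 0.78 and Sp110 called higher. The oocyte marker differences were above 0 for 12 of 12 markers in HET2 (median 0.76) and 11 of 12 in HOM embryos (median 0.68) against the same WT embryos, with none called. Those of the 2-cell markers were above 0 for 9 of 10 in HET2 (median 0.84) and 5 of 10 in HOM embryos (median 0.06), with none called. The part of these markers in the members' differences was not tested.

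The call of Fbxw15 was lost when any of 3 litters was left out. The 10 embryos of WT litter 1 had a mean of 5.50 ± 0.89 (SD) and the 4 of WT litter 2 a mean of 6.85 ± 0.50. The log2 difference between these litters was 1.35 ± 0.45 (SE), with an adjusted p of 0.0955. Without WT litter 2 the difference between HET1 and WT embryos was -0.62 with an adjusted p of 0.273, and without WT litter 1 it was -1.97 with an adjusted p of 0.00361. Without HET1 litter 1 or 2 it was -0.96 and -1.05, with adjusted p of 0.0808 and 0.168. With log2(RPM + 1) or no filter the adjusted p was 0.0575 and 0.0965, and with litter as a random effect it was -1.13 with an adjusted p of 0.375. Depth moved with it: the Fbxw15 level had r = 0.43 with log2 total reads over the 44 embryos (rho = 0.44) and r = 0.24 after centring on litter and genotype, and WT embryos were the deepest. The part of depth in the result was not tested beyond leaving out the 8 embryos with under 500000 reads, where the difference was -0.76 (adjusted p = 0.26).

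In the other comparisons with WT embryos Fbxw15 did not pass. HOM embryos had Fbxw15 levels from 3.58 to 5.99 (median 4.94), a log2 difference from WT of -0.98 ± 0.34 (SE) that did not pass (adjusted p = 0.175, limma). It was -1.95 without WT litter 1 (adjusted p = 0.00757) and -0.60 without WT litter 2 (adjusted p = 0.482). HET2 embryos were at 5.02 to 6.25 (median 5.61), with a difference of -0.24 ± 0.42 (SE, adjusted p = 0.952), which turned to 0.15 without WT litter 2 and to 0.36 without litter 1 of their own mating. These 3 comparisons share the WT embryos and so are not independent of each other. Relative to the mean of the 8 other members whose mean level was 3 log2 RPM or more, Fbxw15 stood higher by 1.29 ± 0.90 (SD) in WT, and by 0.48 ± 0.85 in HET2 and 0.25 ± 0.91 in HOM embryos. In HET1 embryos it stood at -0.11 ± 0.77 relative to the same mean. This contrast was picked after the values had been seen and is given without a test.

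In HET2 against WT embryos none of the 10 members was called, beside 0.0305% of all tested genes. At an unadjusted p under 0.05 there was 1, Fbxw13, beside 1399 of all 16412 genes, and voom on recovered reads called the same gene. Fbxw13 had 15, 19, 1, 17 and 18 reads in HET2 embryos a to e, whereas 11 of 14 WT embryos had none and the highest WT level was 2.96. The HET2 levels were 2.81, 4.10, 1.86, 3.95 and 3.38, so that 3 of the 5 exceeded every WT embryo. The fitted difference was 1.24 ± 0.30 (SE, adjusted p = 0.136, limma). Most WT values sit on the floor. On the deposited values the difference was 3.15 (adjusted p = 0.182) and with voom 3.95 (adjusted p = 0.0132). Without HET2 embryo c it was 1.58 with an adjusted p of 0.0204. The other 9 members had differences between -0.24 and 0.85, and the median over the 10 was 0.54 beside 0.00 (-0.000682) over all tested genes.

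HOM and HET2 embryos share litters and mothers and can be compared within litter. None of the 10 members was called, beside 0.0183% of all tested genes (3 of 16412), 1 member had an unadjusted p under 0.05, as did 790 of all genes, and voom on recovered reads called 0. That member was again Fbxw13, at 1.86 to 3.36 in HOM embryos (median 1.86), with a within-litter difference of -0.97 ± 0.36 (SE, adjusted p = 0.959). It was -1.65 on the deposited values, -1.75 with log2(RPM + 1) and -2.13 with voom. Fbxw15 was lower in HOM by 0.69 ± 0.47 (SE, adjusted p = 0.978) on the log2 scale. Without HET2 embryo e the difference of Fbxw15 was -0.29. The median over the 10 members was -0.09, beside 0.10 over all tested genes. Of the 5 HET2 embryos 4 came from a single litter.

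**Figure D3:**
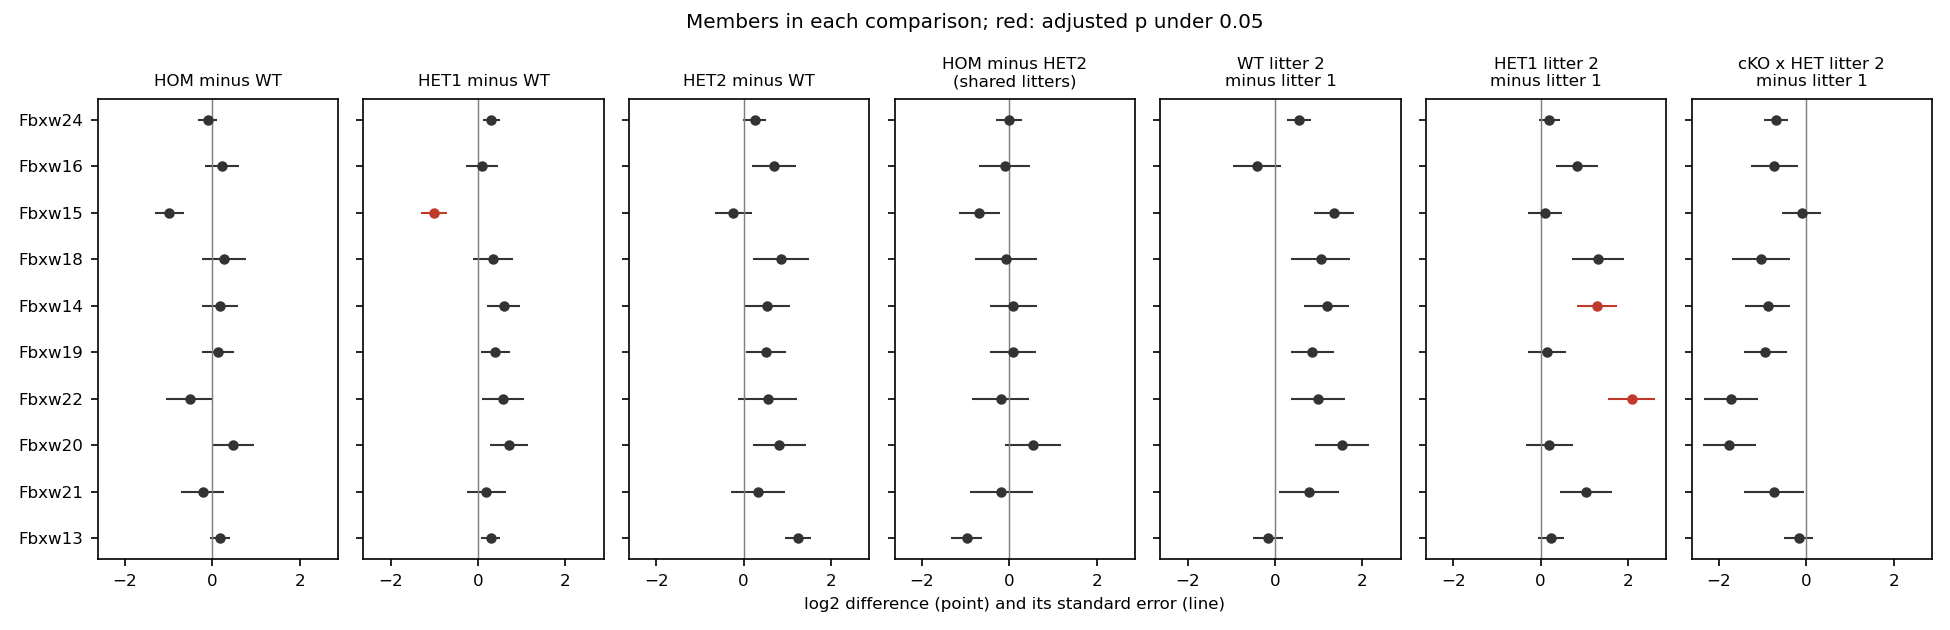
Log2 difference of each member (points) with its standard error (lines) in 7 comparisons, from the fit over all embryos. Members are ordered by level per length, and red points have an adjusted p under 0.05. The red points are Fbxw15 in HET1 against WT embryos (-1.003) and Fbxw14 (1.29) and Fbxw22 (2.08) between the HET1 litters.

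The summed level of the 10 members is given by litter, with no test of the sum. It was 391 ± 124 RPM (SD, n = 10) in WT litter 1 and 632 ± 139 (n = 4) in WT litter 2. In the HET1 litters it was 406 ± 126 (n = 7) and 573 ± 109 (n = 8). In the litters of cKO females and Dppa2/4+/- males it was 580 ± 64.9 (n = 7) and 358 ± 108 (n = 8). The second litter thus had the higher mean sum in the first pair and the second, and the lower in the last. The labels give the numbering of litters no meaning across matings. The mean sums of the 4 groups lay closer together, at 460 in WT, 495 in HET1, 536 in HET2 and 425 RPM in HOM embryos.

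Between the HET1 litters 2 of the 10 members were called, both higher in litter 2, where 16.7% of all tested genes were called in either direction and 5.01% higher in litter 2. Fbxw22 had 14, 11, 1, 10, 5, 5 and 0 reads in the 7 embryos of litter 1, where its level ranged from 1.86 to 4.79 (median 3.47). In litter 2 it ranged from 3.16 to 6.32 (median 5.42), and 6 of its 8 embryos exceeded every embryo of litter 1. The difference was 2.08 ± 0.54 (SE), a 4.23-fold higher mean, with an adjusted p of 0.00661 by limma. Fbxw14 ranged from 3.06 to 5.06 in litter 1 and from 4.64 to 6.44 in litter 2, with a difference of 1.29 ± 0.45 (SE, adjusted p = 0.0431). The call of Fbxw14 was lost under 5 of the alternatives, with adjusted p between 0.0658 and 0.209. Fbxw18 was higher by 1.31 ± 0.59 (SE) and did not pass (adjusted p = 0.126), and Fbxw15 differed by 0.09 ± 0.39 (adjusted p = 0.984). All 10 differences were above 0, with a median of 0.54 beside -0.06 over all tested genes.

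Between the WT litters none of the 10 members was called, beside 2.57% of all tested genes, and 3 had an unadjusted p under 0.05, as did 2431 of all 16412. These were Fbxw15 (above), Fbxw20 with a difference of 1.54 ± 0.61 (SE, adjusted p = 0.185) and Fbxw14 with 1.18 ± 0.52 (adjusted p = 0.244), all by limma, while voom on recovered reads called Fbxw15. The median over the 10 members was 0.92, beside 0 over all tested genes. Fbxw13 (-0.17) and Fbxw16 (-0.40) had a negative difference. Without WT embryos j and k the differences were 0.93 for Fbxw16, 0.94 for Fbxw15, 2.19 for Fbxw20 and 0.74 for Fbxw14, none called, and 159 genes were called in all in place of 422.

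Between the litters of cKO females and Dppa2/4+/- males none of the 10 members was called, beside 4.94% of all tested genes. With the genotype of each embryo in the fit, all 10 differences were below 0, with a median of -0.81 beside 0 over all tested genes. The members with an unadjusted p under 0.05 were 3, beside 3324 of all 16412 genes, and voom on recovered reads called 0. On the deposited values and without embryos under 500000 reads Fbxw22 was called, and with a filter at a mean of 3 or re-centred embryos Fbxw20 was called. Fbxw20 ranged from 3.33 to 5.64 in litter 1 and from 1.86 to 4.57 in litter 2, a difference of -1.76 ± 0.61 (SE, adjusted p = 0.0813, limma), which was -2.77 on the deposited values. Fbxw22 differed by -1.73 ± 0.62 (adjusted p = 0.092) and Fbxw24 by -0.70 ± 0.28 (adjusted p = 0.134).

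The summed oocyte markers also differed between litters. The summed level of the 12 oocyte markers had a median of 754 RPM in WT litter 1 and 1271 in WT litter 2, of 951 and 2614 in the HET1 litters, and of 2176 and 888 in the litters of the last mating. The summed 2-cell markers had medians of 485 and 461, 591 and 1132, and 794 and 550 RPM in the same order. Cumulus and granulosa markers summed to medians of 4.74 RPM or less in every litter. The sum is carried by Bmp15 (626 RPM) and Oosp1 (424 RPM). Between the HET1 litters 8 of the 12 oocyte markers had a difference above 0 and 4 of these were called, beside 5.01% of all genes called higher and 16.7% in either direction, while 4 lay below 0, among them Zp3 (-1.003) and Padi6 (-0.59). Of the 10 2-cell markers 7 were called higher there (median 2.12), and 4 were called lower in the second litter of the last mating (median -1.63), where 4.94% of all genes were called. Between the litters of the last mating 11 oocyte markers lay below 0, of which 2 were called, and between the WT litters 10 lay above 0 with none called. Oosp1, an oocyte-secreted protein gene, was higher in HET1 litter 2 by 2.70 ± 0.36 (SE, adjusted p = 2.8e-06, limma) and lower in the second litter of the last mating by 2.11 ± 0.41 (adjusted p = 0.00205). Their part in the differences of the cluster members was not tested.

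As a share of the variance over the 44 embryos, differences between the 6 litters took from 14.8% (Fbxw21) to 46.3% (Fbxw22), with 37.4% for Fbxw15 and 31.0% for Fbxw24. The median over members, 27.4%, was near the 28.1% of the genes whose mean level was 3 log2 RPM or more. Differences between the 4 groups took a median of 7.08% over members and 12.2% over those genes, with 26.4% for Fbxw15 and 30.6% for Fbxw13. The litter share also holds the differences between matings. The shares are not corrected for the number of sets. Sets without any true difference also take a share, which is larger for 6 litters than for 4 groups. Litter and group shares are thus not comparable with each other.

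Among the 9 members whose mean level was 3 log2 RPM or more, 34 of 36 pairs correlated positively over the 44 embryos (median Pearson r = 0.27, from -0.06 to 0.69). The points share libraries, litters and depth, and the share of positive pairs among other genes of like level was not computed. After centring each gene on litter and genotype, 28 of 36 pairs remained positive, with a median r of 0.15. The highest pair was Fbxw14 and Fbxw19, with r = 0.69 (rho = 0.64) and 0.68 after centring. Fbxw15 and Fbxw16 had the lowest r, -0.06, with rho = 0.22. The most alike transcripts, Fbxw14 and Fbxw22 at 93.1% identity, had r = 0.41 and 0.09 after centring.

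**Figure D4:**
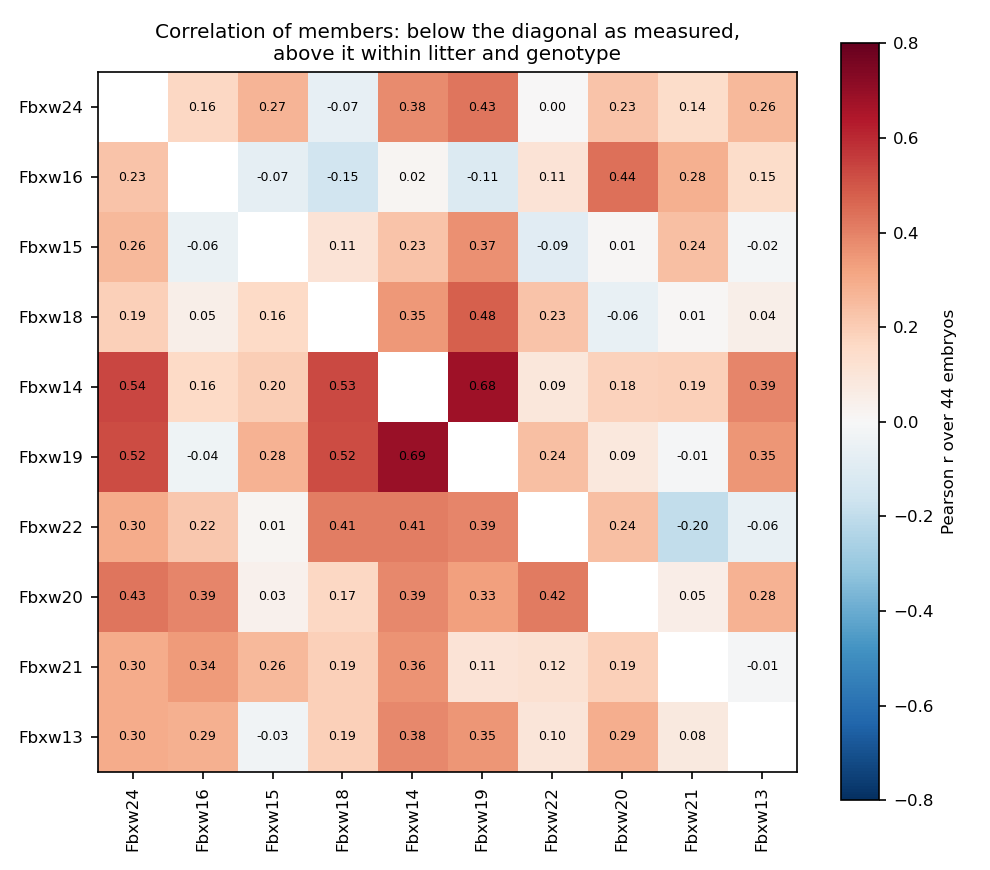
Pearson r between the levels of each pair of all 10 members, the low Fbxw13 included, over 44 embryos, below the diagonal as measured and above it after centring on litter and genotype. Fbxw14 and Fbxw19 stand out at 0.69 and 0.68, and Fbxw15 has values near 0 with several members.

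The genes whose pattern was most like the mean of those 9 members, among 6910 other genes at or above that level, were Khdc1b (r = 0.85), Wee2 (0.85), Cul1 (0.84), Usp15 (0.84) and Spin1 (0.83), over the same 44 embryos. Wee2 encodes the oocyte kinase that holds CDK1 inactive, Usp15 a deubiquitinase and Spin1 a maternal spindlin. Within litter and genotype their r was 0.77 for Wee2, 0.75 for Spin1, 0.73 for Usp15, 0.69 for Cul1 and 0.67 for Khdc1b. The median r of all searched genes with the profile was -0.05. All points share library, litter and depth.

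Of 21 listed SCF genes, 20 were in the table, 7 of them with more RPM than Fbxw24 (186 RPM, not divided by length) and the lowest, Ube2m, with 0.418 RPM. Those with the most RPM were Ube2d3 (a ubiquitin-conjugating enzyme, 1537 RPM), Cul1 (758), Ube2d2a (652) and Cand1 (445), a factor that exchanges F-box subunits. None of the 20 was called in HOM or HET2 against WT embryos, in HOM against HET2 embryos or between WT litters. In HET1 against WT embryos Cdc34 and Rbx1 were higher and Cops4 was lower, 3 of 20 beside 4.54% of all genes. With litter as a random effect none of the 3 was called (adjusted p = 0.518, 0.487 and 0.231). Between the HET1 litters 5 were higher and 4 lower, beside 16.7% of all genes in either direction, and between the litters of the last mating Ube2d3 and Cul1 were lower in the second, beside 4.94%. Cul1 differed by 1.18 ± 0.21 (SE, adjusted p = 9.73e-05) in the HET1 litters and by -1.24 ± 0.23 (adjusted p = 0.00167) in the last mating, both by limma, in the direction in which all 10 cluster members lay in each of these pairs of litters.

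Of the 14 other genes on the Fbxw list (with Btrc), 12 were tested, led by Fbxw11 (165 RPM), Fbxw2 (113), Fbxw4 (102) and Fbxw27 (27.9), the last a neighbour of the array. Fbxw4 was higher in HET1 than in WT embryos by 2.39 ± 0.50 (SE, adjusted p = 0.00468), a call lost with litter as a random effect (adjusted p = 0.231), and none was called in the comparisons of HOM or HET2 embryos or between WT litters. Between the HET1 litters Fbxw4 and Fbxw27 were higher in litter 2 and Fbxw2 was lower. Of all tested genes 16.7% were called there in either direction and 5.01% higher. Fbxw2 was higher in the second litter of the last mating, where 4.94% of all tested genes were called. Of the 5 other F-box genes listed, Fbxo5, the EMI1 inhibitor of the anaphase-promoting complex, had 82.6 RPM, Skp2 62.0, Fbxo43 54.5 and Ccnf 48.9. Fbxo5 and Fbxo43 were higher in HET1 litter 2, beside 5.01% of all tested genes called higher and 16.7% in either direction. None of the 5 was called in another comparison. Of the oocyte transcription factors, Lhx8 had 18.9 RPM and Nobox 9.67, whereas Sohlh1, Sohlh2 and Figla had reads in 2, 8 and 3 embryos. Lhx8 was higher in HET1 litter 2 by 1.60 ± 0.55 (SE, adjusted p = 0.0405, limma), beside 5.01% of all tested genes. No other call was made among the 4 that were tested.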

How the data were processed

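Libraries of polyadenylated RNA from 44 embryos were made with Smart-seq2 chemistry. Per the labels, reads were trimmed with Trim Galore 0.6.5 and cutadapt 2.3 and mapped to GRCm38 with HISAT2 2.1.0. The authors kept reads above a mapping quality limit, which removes reads that match near-identical copies equally well. They quantified genes in SeqMonk without strand, and the deposited values are log2 RPM, in which a gene without reads holds the value of 0.9 read. Whole reads were recovered from them (99.9997% within 0.05 read of a whole number), and no 2 columns were identical. Limits from 3 reads cover counting error only, whereas SDs and SEs include the spread between embryos.

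Values under 1.86 were raised to that floor. Genes with a mean of at least 0 (16412) were fitted with limma 3.58.1 (R 4.3.3, eBayes with trend) and Benjamini-Hochberg adjustment over all of them, in a model of 4 groups against WT and a model of 6 litters with a term for HOM. The group model was also run on simulated data without litter differences, and the outcome is not reported here. Promoter windows of 1 chromosome without members were not used here. All members were named, with counts and up to 4 genes of the highest level for each further list, and members and lists were chosen with earlier results of these data known. The test behind differential expression in the study is not given in the sources used here. Figures were drawn with matplotlib 3.10.9.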

Additional observations from a re-analysis of the deposited data

Results flagged for a closer look

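Each member was examined for an embryo far from the others of its group in HET2 (5 embryos) and HOM (10 embryos), 20 sets in all, of which chance alone would set apart about 1 in 20. In 3 sets the lowest embryo stood apart by Dixon's criterion. HET2 embryo e had an Fbxw22 level of 1.86, with 0 reads, against a group median of 4.44, and an Fbxw19 level of 4.34, with 35 reads, against a median of 5.81. This embryo is the sole HET2 embryo of its litter. HOM embryo h had an Fbxw14 level of 1.86, with 1 read, against a median of 4.81.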

How the results depend on the processing

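With log2(RPM + 1), without a filter, without embryos under 500000 reads, with a random litter effect and with each litter's mean as a replicate, 0 members were called in HET1 against WT embryos, while on the deposited values and with voom on recovered reads 2 were called (Fbxw13 and Fbxw15), beside 4054 and 2520 of all 16412 genes, whose median difference was 0.61 and 0.51 there. Leaving out a litter gave 0 to 1 members there and in HOM against WT embryos (Fbxw15 without WT litter 1, beside 249 of all genes in place of 3), with Fbxw22 in place of Fbxw15 without HET1 litter 1, and over all genes 2339 were called in HET1 without HET1 litter 1 and 6 without HET1 litter 2. Likewise leaving out a litter or an embryo gave 0 to 1 members in HET2 against WT embryos. With voom 1 member was called in HET2 against WT embryos (Fbxw13) and 1 between WT litters (Fbxw15). Between the HET1 litters 1 member (Fbxw22) was called on the deposited values, with log2(RPM + 1), without a filter, with voom and without shallow embryos. Between the litters of the last mating 1 was called on the deposited values and without shallow embryos (Fbxw22), and with a filter at a mean of 3 and with re-centred embryos (Fbxw20). The cause of these changes was not tested. Of 232 alternative values of 20 differences (those with an unadjusted p under 0.05, Fbxw15 in every comparison, Fbxw16 in HET1 against WT embryos, and Fbxw13 and Fbxw16 between WT litters, a set chosen after the values were seen), 201 kept direction and side of the threshold, 13 lost the call, 8 gained one and 10 changed sign. For Fbxw15 these were 0.21 (voom) and 0.22 (without shallow embryos) between the litters of the last mating, and values between -1.20 and 0.36 in HET2 against WT embryos as single litters or embryos were left out. For Fbxw16 in HET1 against WT embryos they were -0.034 with re-centred embryos, -0.20 without WT embryos j and k, and values between -0.36 and 0.48 as single litters were left out. For Fbxw16 between the WT litters the difference was 0.93 without WT embryos j and k and between -0.87 and 0.87 as single embryos were left out, above 0 without embryo k. Of 671 alternative values of the 50 other differences, 65 changed sign, none with a call, and 3 gained a call.

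Mating numbers are shared by the groups, and the labels do not say what they stand for. Deviations of same-numbered litters correlated at 0.45 between WT and HET1 (6919 genes). The correlation was -0.45 between WT and the cKO and HET mating, and -0.82 between HET1 and that mating. Each value rests on a single pair of litters per mating, so they cannot decide whether same-numbered litters belong together. With mating number as a replicate block 1 member was called in HET1 against WT embryos and 0 in HOM or HET2 against WT embryos, and over all genes 586 were called in HET1 in place of 745. With a random litter effect or litter means 0 of all genes were called there. Without WT embryos j and k, an alternative added after seeing the data, the member counts were the same in the 3 comparisons with WT and between the WT litters.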
